A study of Mus musculus with 4 samples.

Results

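The genes that build elastic fibres were examined in adult mouse ureter, the muscular tube between kidney and bladder. The set was written as 10 genes, and its members were all probe sets on the array annotated with the symbol of one of these genes and no other. This gave 9 genes with 19 probe sets, of 18193 named genes and 45037 probe sets tested. Fbn1, the gene of fibrillin-1, is not analysed here. Each gene is represented by its probe set with the highest mean. All 4 samples were ureter of adult male FVB/N mice at Theiler stage 28 that carried SMGA/EGFP, a transgene in which the smooth muscle gamma actin gene (Actg2) drives a green fluorescent protein. Transgenic fathers had been crossed with FVB/N mothers, no sample was pooled, and the green fluorescence guided the dissection, so the piece taken depended on where the reporter was active. After 2 rounds of amplification, the RNA of each sample was hybridised to its own Affymetrix MOE430 array. There is only 1 group, without a control or a treatment, so the questions are which of these genes the ureter expressed measurably and how they varied between the samples, called replicates 1 to 4 in no meaningful order. The labels do not say that the samples came from separate animals, so p-values measure only the spread between these samples, which may be technical.

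Elastic fibres give stretched tissue its recoil. Their core is cross-linked elastin, laid down on a scaffold of microfibrils made of fibrillins and the small glycoproteins that bind them. Fibulins bring elastin, the microfibrils and the cross-linking enzymes together, and lysyl oxidase, a copper enzyme, oxidises lysines so that elastin and collagen can be cross-linked. Fibroblasts and smooth muscle cells are the usual sources of these proteins, and in a hollow organ such as the ureter the fibres lie in the connective tissue, the muscle coat and the vessel walls.

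The promoters of the 3 fibulin genes are shown because of their values across the samples. By brightest probe sets, Fbln1 and Fbln5 were the most similar pair of members above background, while Fbln2 varied least. The sequences are from RefSeq (GRCm38.p6) and run 5′ to 3′ on the strand of the gene, from 250 bases before an annotated start to 50 bases after it. Fbln1 lies at chr15:85205758-85206057 (+ strand), Fbln2 at chr6:91212514-91212813 (+ strand) and Fbln5 at chr12:101819070-101819369 (- strand). Capitals mark the GC box, GGGCGG read on either strand.
Fbln1: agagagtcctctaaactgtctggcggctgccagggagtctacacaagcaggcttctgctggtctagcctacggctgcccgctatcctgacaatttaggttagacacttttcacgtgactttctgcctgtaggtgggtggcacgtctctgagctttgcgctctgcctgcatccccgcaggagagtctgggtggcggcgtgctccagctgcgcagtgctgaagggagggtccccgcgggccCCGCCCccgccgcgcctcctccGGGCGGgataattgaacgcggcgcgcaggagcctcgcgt
Fbln2: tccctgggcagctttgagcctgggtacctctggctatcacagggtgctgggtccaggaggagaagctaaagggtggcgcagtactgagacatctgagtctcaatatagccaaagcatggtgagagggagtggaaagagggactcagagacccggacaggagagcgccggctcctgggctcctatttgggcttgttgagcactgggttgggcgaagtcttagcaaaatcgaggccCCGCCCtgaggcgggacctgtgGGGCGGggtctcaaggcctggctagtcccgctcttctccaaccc
Fbln5: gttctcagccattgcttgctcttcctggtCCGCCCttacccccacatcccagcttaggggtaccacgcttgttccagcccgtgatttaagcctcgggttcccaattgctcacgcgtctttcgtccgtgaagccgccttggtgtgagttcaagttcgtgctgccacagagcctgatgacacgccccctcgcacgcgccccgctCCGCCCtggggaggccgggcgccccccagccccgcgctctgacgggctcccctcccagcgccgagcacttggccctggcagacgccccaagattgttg
Each of these windows held 2 GC boxes. Fbln1 and Fbln5 each have 1 further annotated window, at chr15:85205699-85205998 and chr12:101818435-101818734, and these held 0, so for both genes the count depends on the start used. Of the 8 promoter windows that the table gives for Fbn1, Mfap2, Fbln1, Fbln2 and Fbln5, some of which overlap, 5 held a GC box, against 35.7% of 32851 windows of the same length. The TATA box, TATAAA, was found in 0 of the 8 member windows and in 13.6% of all windows. The AP-1 site, TGACTCA, was in 0 of the 8 and in 5.2% of all, and the CArG box of muscle genes in 0 of the 8 and in 1.63% of all. Each motif was searched on both strands and none overlaps another in these windows. Eln, Fbn2, Mfap4, Mfap5 and Lox are not shown.

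Values are the authors' deposited intensities, 1 per probe set and array, or levels, which are log2(intensity + 16). Every array had been scaled to a mean of 1500 after trimming. A probe set was called above background where limma's one-sided moderated test placed its mean over the 4 samples above the arrays' own thresholds with a Benjamini-Hochberg adjusted p under 0.05. These thresholds, the 95th percentile of 83 probe sets for chemosensory receptors, were levels of 7.23, 6.98, 7.57 and 7.36 in replicates 1 to 4. For a gene to be called, 1 such probe set was enough. Probe sets bind their targets with different strength, so levels are compared between samples and not between genes. The ratio of 3' to 5' signal, often used as a measure of RNA integrity, was 34.4, 36.9, 31.6 and 18.8 for Gapdh in replicates 1 to 4. For Actb it was 8.23, 19.8, 5.27 and 4.43, and both were highest in replicate 2 and lowest in replicate 4. These ratios were read after 2 rounds of amplification, so RNA integrity and amplification cannot be told apart in them. The arrays correlated with r between 0.890 and 0.935 over all probe sets. With 4 arrays, precision is limited throughout.

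Most elastic fibre genes were measurable in the adult ureter. Elastin, fibrillin-2, Mfap5, the fibulins Fbln1, Fbln2 and Fbln5, and lysyl oxidase were above background, while Mfap2 and Mfap4 did not pass the test. That is 7 of the 9 measured members, against 58.1% of all 18193 named genes. Without replicate 3 it was also 7, against 58.2% of all named genes. With a stricter background, 3 median absolute deviations over the receptors' median, only Mfap5 and Fbln1 passed (2 of 9, against 38.4% of all named genes). The plot of the levels of the 9 genes by sample shows that 6 of the 7 genes above background were lowest in replicate 3, and that the exception was Fbn2.

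**Figure D1:**
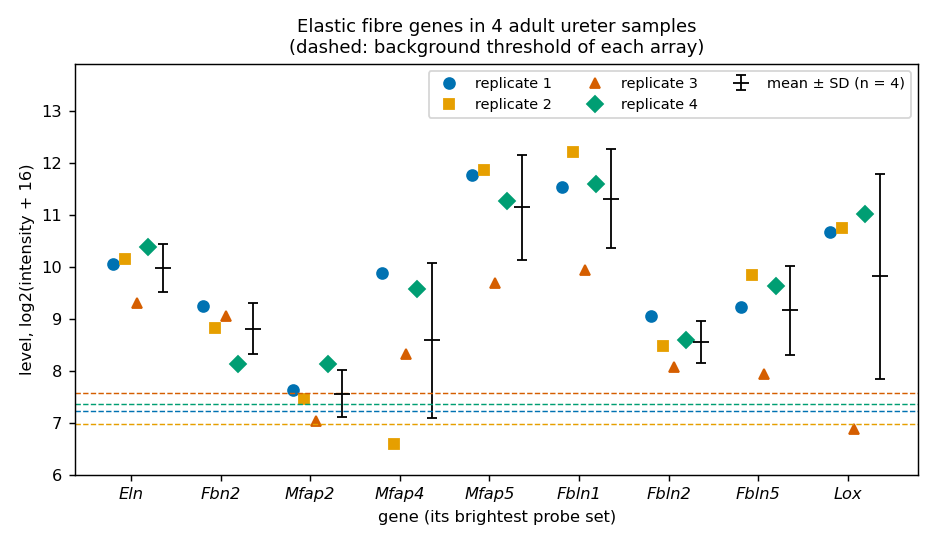
Levels, log2(intensity + 16), of the 9 measured elastic fibre genes in the 4 ureter samples, with the mean ± SD (n = 4) in black and each array's background threshold as a dashed line in that sample's colour. Lox and Mfap2 fall below the threshold in replicate 3 and Mfap4 in replicate 2, while Eln, Fbn2, Mfap5, Fbln1, Fbln2 and Fbln5 lie over the threshold in all 4 samples.

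Eln encodes tropoelastin, the soluble precursor of the elastic core. Its intensity was 1054, 1111, 620.2 and 1307 in replicates 1 to 4, so that replicate 3 was the low sample and the other 3 lay close together. The level averaged 9.97 ± 0.46 (SD, n = 4) and was above background (limma, adjusted p = 0.000148). The highest sample exceeded the lowest by 2.08-fold on the scale of intensity + 16. The second Eln probe set stayed between 18.48 and 46.55 and under the threshold in all 4 samples, so the measurement of elastin rests on 1 probe set.

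Of the microfibril genes, Fbn2 encodes fibrillin-2, which is known mainly from developing tissue. Fbn2 had intensities of 591.4, 438.9, 514.9 and 261.9 in replicates 1 to 4. It was lowest in replicate 4 and not low in replicate 3, unlike the other members above background. Its level was 8.81 ± 0.49 (SD, n = 4; limma, adjusted p = 0.00213). The second Fbn2 probe set was not above background.

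Mfap5 and Mfap2 encode the microfibril-associated glycoproteins MAGP-2 and MAGP-1, small proteins that bind fibrillin. Mfap5 had intensities of 3476, 3703, 802.3 and 2448, with replicate 3 far under the other 3. Its level was 11.14 ± 1.01 (SD, n = 4; limma, adjusted p = 0.000204) and its highest sample exceeded its lowest by 4.54-fold. Its second probe set, also above background, gave 2626, 1225, 205.7 and 1493, again lowest in replicate 3. Both probe sets of Mfap5 therefore placed the same sample last, though the first was highest in replicate 2 and the second in replicate 1. Mfap2, by contrast, had 181.3, 160.1, 114.3 and 261.8, close to the thresholds in every sample, and was not above background at a level of 7.56 ± 0.45 (SD, n = 4; limma, adjusted p = 0.412).

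Mfap4 encodes a fibrinogen-related glycoprotein that binds elastin and fibrillin and is secreted by smooth muscle and fibroblasts. It had intensities of 918.7, 80.01, 305.8 and 745.9 in replicates 1 to 4. The low sample was replicate 2, the only one under its threshold. Every smooth muscle marker listed further on was at its highest there, and so were the ratios of 3' to 5' signal for Gapdh and Actb. Any part of either in the low value was not tested. The level of Mfap4, 8.59 ± 1.49 (SD, n = 4), missed the threshold of the test (limma, adjusted p = 0.0514). Mfap4 passed without replicate 2 (adjusted p = 0.0110), with a pseudocount of 64 (0.0421) and with a trended prior variance (0.0407), the last chosen after the data were examined, and over all alternatives with a test its adjusted p ran from 0.0110 to 1. Mfap4 has 1 probe set, so the low value has no second measurement.

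The fibulins are calcium-binding matrix proteins with EGF-like repeats. Fbln1 encodes fibulin-1, found in elastic fibres and basement membranes. Its brightest probe set gave 2958, 4682, 966.3 and 3042, high in replicate 2 and low in replicate 3, with a level of 11.31 ± 0.96 (SD, n = 4; limma, adjusted p = 0.000140). The other Fbln1 probe sets were dimmer but also above background and did not follow it. The second gave 365.4, 240.4, 465.6 and 574.1 and the third 186.4, 151.8, 268.8 and 356.5, both lowest in replicate 2 and highest in replicate 4. The order of samples for Fbln1 thus depends on the probe set. Fibulin-1 is known to be made in splice forms with different ends, but which transcripts each probe set detects was not tested. The dimmer probe sets both rose in the order of replicates 2, 1, 3 and 4. Both ratios of 3' to 5' signal fell in that same order, for Actb from 19.8 to 4.43. Any part of RNA integrity or amplification in the order of samples was not tested either.

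Fbln5 encodes fibulin-5, which binds elastin and lysyl oxidase-like enzymes and is needed in mice for normal elastic fibres. Its intensities were 581.8, 902.9, 229.1 and 775.9, so the pattern was that of the brightest Fbln1 probe set, high in replicate 2 and low in replicate 3. The level was 9.16 ± 0.85 (SD, n = 4; limma, adjusted p = 0.00494). The centred profiles of Fbln5 and the brightest Fbln1 probe set differed by a root mean square of 0.18 log2 units over the 4 samples. This was the smallest difference of the 21 pairs among the members above background, followed by Mfap5 and Fbln1 at 0.23. The dimmer Fbln1 probe sets were lowest in replicate 2, where Fbln5 was highest.

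Fbln2 encodes fibulin-2, a larger relative that binds fibrillin and basement membrane proteins. It had 514.3, 338.3, 254.1 and 368.3 in replicates 1 to 4, lowest in replicate 3 like Fbln5 and the brightest Fbln1 probe set but by less. Its level of 8.55 ± 0.40 (SD, n = 4) was above background (limma, adjusted p = 0.00544). The call rests on a probe set whose ID marks it as open to more than 1 transcript. When such probe sets were left out, the remaining one lay 2.66 log2 units under the thresholds, and with the background at the 99th percentile the adjusted p was 0.0608.

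Lox encodes lysyl oxidase, the enzyme that starts the cross-linking. Its intensities were 1601, 1690, 101.6 and 2053 in replicates 1 to 4. Replicate 3 was under its background threshold while the other 3 samples lay within a narrow band. The size of that gap is therefore only bounded, and with replicate 3 set to its threshold the highest sample exceeded it by at least 3.45 log2 units. The level averaged 9.82 ± 1.97 (SD, n = 4; limma, adjusted p = 0.0178). The call was lost without replicate 1 (adjusted p = 0.0589), without replicate 2 (0.0823) or without replicate 4 (0.0708), each of which leaves the low sample among 3, and without replicate 3 the adjusted p was 5.02e-05. The other Lox probe sets were not above background. One of them was over its threshold in replicate 1 alone, at 234.1.

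Set side by side, the probe sets of a gene did not always rank the samples alike. Of the 19 probe sets of the members 10 were above background, against 41.3% of all probe sets tested, and 7 of these 10 were lowest in replicate 3, against 30.7% of the 18597 probe sets above background on the arrays. The exceptions were that of Fbn2, lowest in replicate 4, and the dimmer pair of Fbln1, lowest in replicate 2. The 9 probe sets under background belong to every measured gene except Mfap5 and Fbln1.

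**Figure D2:**
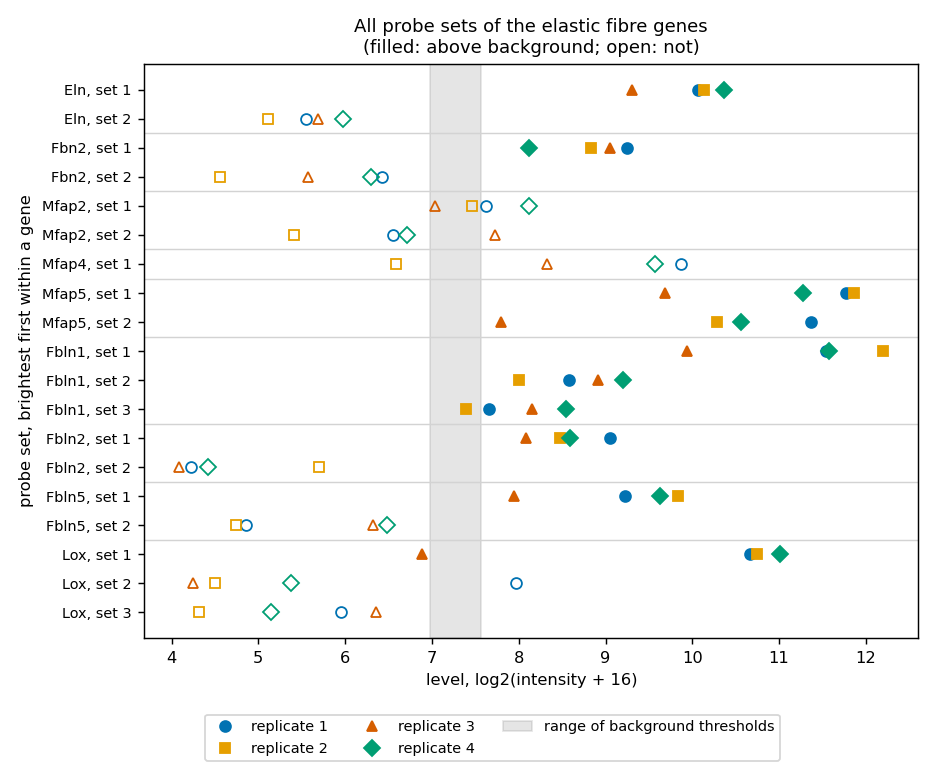
Levels, log2(intensity + 16), of all 19 probe sets of the elastic fibre genes in the 4 samples, brightest first within a gene, filled where the probe set was above background. The grey band spans the arrays' thresholds, 6.98 to 7.57. Both Mfap5 probe sets have replicate 3 at the left, while the 3 Fbln1 probe sets disagree on the lowest sample.

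Across the set, replicate 3 stood below the other samples. Each sample's deviation is the level of a gene in it minus the mean of the other 3 samples. Over the 7 genes above background the median deviation was 0.58, 0.91, -1.63 and 0.35 log2 units in replicates 1 to 4, and over all 9 measured genes it was 0.58, 0.22, -0.88 and 0.53. For all named genes above background the medians were 0.03, 0.02, -0.04 and 0.05, so those genes as a whole were hardly shifted. The scaling of every array to the same trimmed mean works toward such small medians. The median intensity of all probe sets tested did differ, at 143.6, 126.3, 219.8 and 178.9 in replicates 1 to 4. In replicate 3, Lox deviated by -3.93 as computed from a value under the threshold and by -3.23 with that value set to the threshold. Mfap5 deviated by -1.96, Fbln1 by -1.83, Fbln5 by -1.63, Eln by -0.88 and Fbln2 by -0.62, while Fbn2 deviated by 0.32. Of the members above background 6 of 7 had their lowest level there, against 34.2% of all genes above background, and of all measured members 7 of 9, against 26.9% of all named genes. The medians are linked, since a low sample raises the deviation of the other 3. Without replicate 3 those of replicates 1, 2 and 4 were -0.19, 0.15 and -0.17. When all probe sets of a gene above background were averaged, the medians of replicates 2 and 3 were 0.22 and -0.88.

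Markers of the cells that make or surround these fibres moved differently between samples. In replicate 3 the fibroblast markers were low as well. Their median deviation over the 7 genes above background was -2.15 there, against 0.88, 0.82 and 0.64 in replicates 1, 2 and 4. All 8 measured fibroblast markers were at their lowest in replicate 3, against 26.9% of all named genes. Their summed intensity was 20900 there, against 85410 to 122800 in the other samples. That low fibroblast signal was already known when these genes were chosen and is not independent support. The endothelial markers had a median of -2.14 in replicate 3, with 5 of 6 at their lowest, against 26.9% of all named genes. Their summed intensity there was 3346, against 9974 to 18610.

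Smooth muscle markers did not share this pattern. All 8 were above background, against 58.1% of all named genes. All 8 were lowest in replicate 1 and highest in replicate 2, against 19.5% and 25.2% of all genes above background. Their medians were -1.09, 1.23, 0.19 and -0.49 in replicates 1 to 4. Their summed intensity of 49870 in replicate 3 lay inside the range of 24260 to 77230 of the other samples. Urothelial markers had a median of 0.69 in replicate 3 over 4 genes above background, and their sum was highest there at 110900, against 42030 to 67550. These markers define the lining of the ureter. Upk1a, Upk1b, Upk2 and Krt5 were above background. Upk3a and Krt20 did not pass over the 4 samples but were bright in replicate 3, at 30680 and 3287, against at most 119.8 in any other sample. Without this pair the sum was 76940 in replicate 3, against 41900 to 67420.

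Replicate 3 also held signal from striated muscle. All 6 skeletal muscle markers were over its threshold, with a summed intensity of 197400, against 310.9 to 412.7 in the other samples, where 0, 1 and 1 of them were over the threshold in replicates 1, 2 and 4. The adipocyte markers summed to 31450 in replicate 3, against 159.6 to 351.5, of which Fabp4 alone, a gene also expressed by endothelial cells and macrophages, gave 31230. Of the 3 markers 2 were over the threshold there, and Adipoq, the defining one, was not above background over the 4 samples, with a level of 7.77 in replicate 3. The mesothelial markers did not move together in replicate 3, where Msln and Gpm6a deviated by -5.03 and -2.81 and Upk3b by 3.13. Upk3b is by name a uroplakin gene, and Upk1a, Upk1b, Upk2 and Upk3a were also highest in replicate 3. Which cells the Upk3b signal came from was not tested. The median over the 3 mesothelial markers above background was -2.81. Over all 5 measured it was 0.50, but these include Lrrn4 and Wt1, which were under the threshold in all 4 samples. Macrophage markers had a median of -0.69 in replicate 3 over 3 genes above background. The remaining one, Cx3cr1, did not pass over the 4 samples. It went the other way in replicate 3, where it was highest at 1460 and deviated by 3.12. The male reproductive tract markers summed to 6293, 61790, 44070 and 647.3 in replicates 1 to 4. The genes differed, since in replicate 3 the prostate gene Pbsn gave 43670 of the sum, while the seminal vesicle genes Svs4, Svs5 and Svs2 were at 28480, 25070 and 7579 in replicate 2 and at 77.7, 179.8 and 142.9 in replicate 3. The liver markers summed to 45590, 387.3, 11860 and 477.6, highest in replicates 1 and 3. The part of any of these cell types in the low elastic fibre values of replicate 3 was not tested. In such tissue samples fewer cells of a type and less RNA per cell cannot be told apart.

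**Figure D3:**
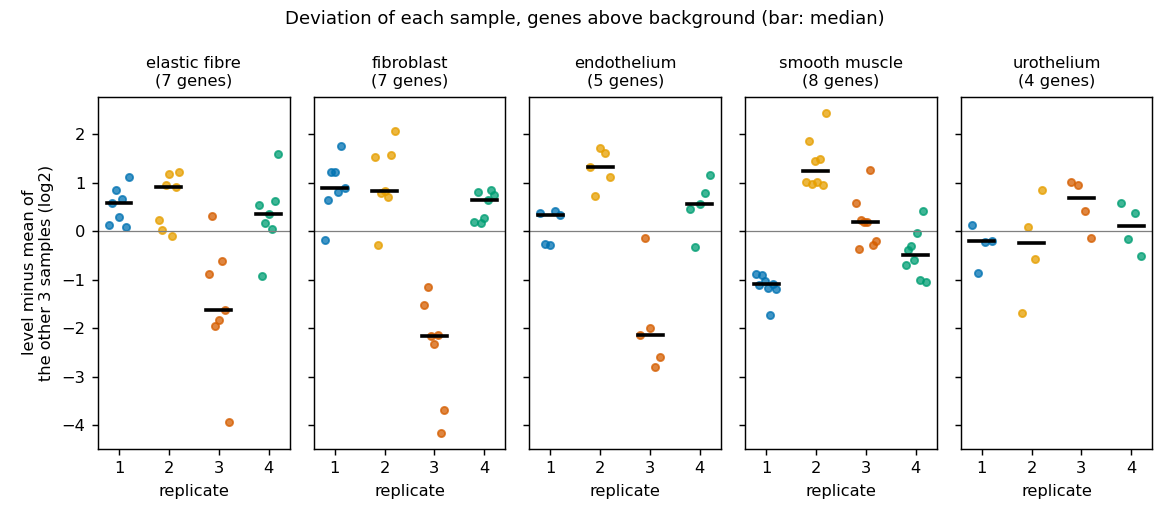
Deviation of each sample from the mean of the other 3 (log2 units, y axis) for the genes above background of the elastic fibre set and of 4 marker lists, 1 point per gene and a bar at the median. In replicate 3 the elastic fibre, fibroblast and endothelial medians are -1.63, -2.15 and -2.14, while those of smooth muscle and urothelium are 0.19 and 0.69.

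Despite these differences, 0 of the 7 members above background passed the test of spread, which sets the variance over the 4 samples against limma's prior variance for probe sets of the same level. On the arrays 0 of 18597 probe sets passed (0%), not even Pbsn, whose highest sample exceeded its lowest by 97.8-fold (F test, adjusted p = 0.379). With 4 arrays the test could call little, so 0 of 7 does not show that the members were stable. Of all probe sets above background, 6.22% had an unadjusted p under 0.05. Lox was the 1 member with such a p (0.00765, adjusted 0.581), with a variance 12.2 times the prior. Mfap5 and Fbln1 followed with unadjusted p-values of 0.0562 and 0.0621 (limma prior, adjusted 0.833 and 0.854), and for Eln, Fbn2, Fbln2 and Fbln5 the unadjusted p lay between 0.228 and 0.704. As a description, the SD of Lox was larger than that of 99.5% of all genes above background, those of Mfap5, Fbln1 and Fbln5 larger than 93.5%, 92.5% and 89.1%, and those of Fbn2, Eln and Fbln2 larger than 63.3%, 58.3% and 49.1%. SDs also vary with the level. Among the 500 genes nearest in level the shares were 99.2% for Lox, 94.0% for Mfap5, 93.6% for Fbln1, 76.0% for Fbln5, 49.2% for Eln, 44.6% for Fbn2 and 28.4% for Fbln2.

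Other genes of fibre assembly and cross-linking were above background in 10 of 17 cases, near the 58.1% of all named genes (Loxl2 and Efemp2 are not analysed here). Efemp1, the gene of fibulin-3, had a level of 14.59 ± 0.60, Emilin1, a glycoprotein at the border of elastin and microfibrils, 8.36 ± 0.36, and Fn1, fibronectin, 11.94 ± 0.83 (SD, n = 4 each). The lysyl oxidase relatives differed from each other in their samples. Loxl1, known in mice for its part in elastin renewal, had levels of 10.87, 11.05, 8.08 and 10.70 in replicates 1 to 4, low in replicate 3 as Lox was. Loxl4 had 9.56, 7.32, 8.77 and 9.52, low in replicate 2 as Mfap4 was. Loxl3 at 7.87 ± 0.39 was not above background (limma, adjusted p = 0.107). Bmp1, a protease that activates the lysyl oxidase precursor, had 9.17 ± 0.27, and Atp7a, which delivers copper to secreted enzymes, had 12.85 ± 0.27, each with little difference between samples (SD, n = 4 each). Hmcn1, Emilin2, Emilin3, Fbln7, Adamtsl2 and Adamts10 did not pass, while Tgm2, Adamtsl4 and Adamtsl5 did. In replicate 3 the list's median deviation was -0.49, with 6 of the 10 genes at their lowest, against 34.2% of all genes above background.

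Latent TGF-beta genes were above background in 7 of 8 cases, against 58.1% of all named genes. The latent TGF-beta binding proteins are relatives of the fibrillins that hold the growth factor in the matrix, and Ltbp4 is also needed for elastin assembly in mice. Ltbp1 had levels of 11.93, 12.49, 9.59 and 12.46 in replicates 1 to 4, and Ltbp4 had 9.20, 9.96, 8.86 and 10.13, both lowest in replicate 3. Ltbp2, which binds fibulin-5, went the other way and was highest there, with 11.22, 11.69, 12.89 and 10.97. Ltbp3 had 14.34 ± 0.41 (SD, n = 4), with replicates 1 and 3 above replicates 2 and 4. Of the growth factors, Tgfb2 had 10.27 ± 1.23 and Tgfb3 9.70 ± 0.96 (SD, n = 4 each), both lowest in replicate 3, and Tgfb1 was not above background at 7.50 ± 0.60 (limma, adjusted p = 0.532). Tgfbi, a matrix protein induced by TGF-beta, had 13.73 ± 0.93. The list's median deviation in replicate 3 was -1.79.

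Genes of enzymes that can degrade elastin were above background in 5 of 8 cases, near the 58.1% of all named genes. These were the metalloproteases Mmp2 at 12.34 ± 1.65 and Mmp7 at 14.56 ± 0.69 and the cathepsins Ctsk at 9.27 ± 1.94, Ctsl at 13.55 ± 0.52 and Ctss at 13.05 ± 0.67 (SD, n = 4 each). Mmp12, the macrophage elastase, lay between 4.36 and 4.66 in all 4 samples, and Elane, the neutrophil elastase, between 6.57 and 7.51, each not above background (limma, adjusted p = 1 for both), as was Mmp9 (0.336). Ctsk, known from fibroblasts and osteoclasts, had 10.46, 10.57, 6.44 and 9.62, with only replicate 3 under its threshold, the same sample as for Lox. The plot of the other assembly and turnover genes shows replicate 3 as the lowest sample for 15 of the 22 that were above background, against 34.2% of all genes above background.

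**Figure D4:**
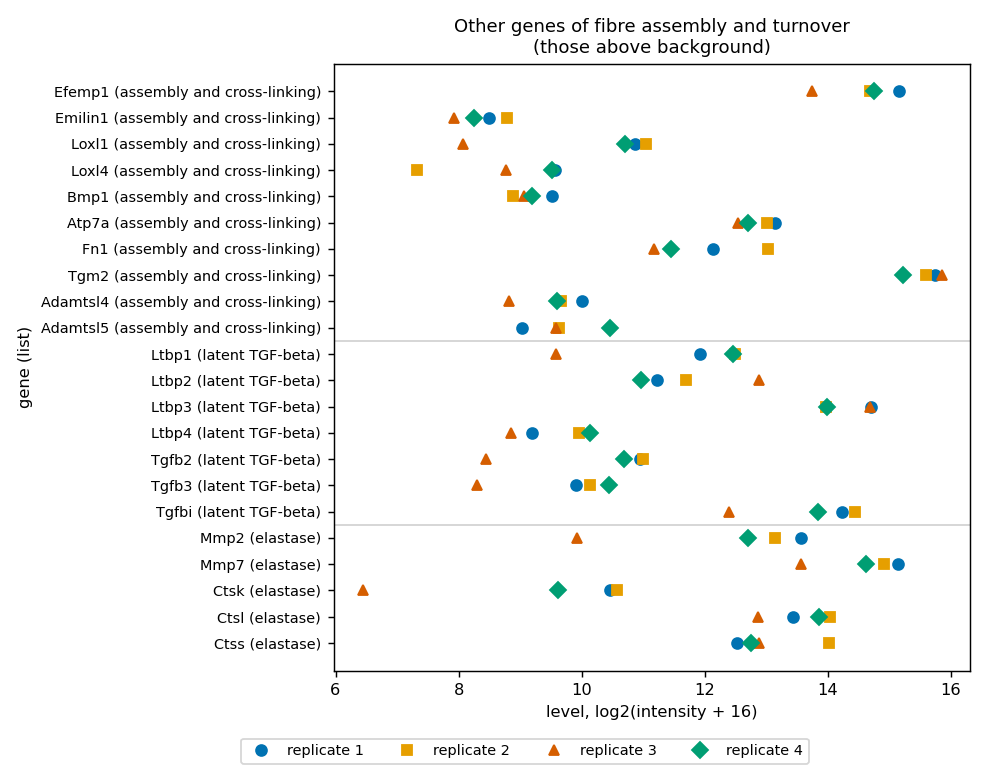
Levels, log2(intensity + 16), of the 22 genes above background in the lists for assembly and cross-linking, latent TGF-beta and elastases, 1 symbol per sample. Replicate 3 is lowest for Loxl1 (8.08), Ltbp1 (9.59), Mmp2 (9.92) and Ctsk (6.44), and highest for Ltbp2 (12.89) and Tgm2 (15.85).

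Among the 10578 genes above background, those whose centred levels lay closest to Eln were Pgs1, P3h3, Sh3rf1, Ski and Gpalpp1, at root mean square differences of 0.014 to 0.031 log2 units over 4 samples. Fbln2 was at 0.31, with 2045 genes nearer, and Fbln5 at 0.38, with 3195 nearer. Fbln1, Mfap5 and Fbn2 were at 0.52, 0.57 and 0.73, with 5511, 6518 and 8450 genes nearer, while Lox at 1.32 was among the farthest. Whether any gene lay closer to Eln than chance would give over 4 samples was not tested.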

How the data were processed

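Adult ureter RNA from 4 unpooled samples was measured on 1 Affymetrix MOE430 array each. The authors deposited 1 linear intensity per probe set and array. Per the submitters' processing notes GCOS was used, with version, algorithm and genome build not given in the sources used here. The intensities had been scaled to a common trimmed mean and were used as deposited. Of 45101 probe sets, 64 controls were left out. Genes were named through the platform annotation, in which 34945 probe sets have 1 symbol, 932 several and 9160 none, and 34741 were found in the RefSeq table of GRCm38.p6.

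Levels, the background test and the spread test (F with 3 and 5.44 degrees of freedom) were computed in R 4.3.3 with limma 3.58.1 and tested on simulated data. The background test was fitted on all 45037 probe sets and the spread test on the 18597 above background. The pseudocount shrinks differences between low intensities. The rule for naming took all members, all genes of the 3 further lists and the 5 genes nearest to Eln. The members, lists and tests were chosen with earlier results of these data known. Alternatives varied the pseudocount (1 or 64), the background and the way to form the deviations, used quantile normalization, made calls without a test, left out probe sets open to more than 1 transcript, and left out each replicate.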

Additional observations from a re-analysis of the deposited data

Results flagged for a closer look

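In 3 of the 29 elastic fibre, assembly, TGF-beta and elastase genes above background, 1 sample lay far from the other 3 by Dixon's ratio, the gap to the nearest sample over the whole range, and the ratio passed the 95% critical value for 4 samples. These were Lox (0.914), Loxl1 (0.882) and Tgfb2 (0.876), and in each the sample was replicate 3, with levels of 6.88, 8.08 and 8.44, against 10.66 to 11.01, 10.70 to 11.05 and 10.69 to 11.00 in the others. The low value of Lox is under its threshold, and with that value set to the threshold its ratio was 0.897. For normally distributed values chance flags about 1 in 20 such groups, and these genes were measured on the same arrays. The share over all genes above background was not computed, so whether 3 of 29 is unusual on these arrays was not tested. Replicate 3 was the lowest sample in 34.2% of all genes above background.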

How the results depend on the processing

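No paired analysis was possible because all samples belong to 1 group. The members above background numbered 6 to 9 of 9 under every alternative except 1, against 53.4% to 66.5% of all named genes. Setting the background at median plus 3 MAD (median absolute deviations) gave 2 of 9 members, 4 of 17 assembly genes and 4 of 8 latent TGF-beta genes. The share of all named genes was 38.4%. With this background, 2 of 2 member probe sets were lowest in replicate 3. There Fbln2 lay at -0.75, Fbln5 at -0.14 and Fbn2 at -0.49 relative to the thresholds. A call without a test gave 16 of 17 assembly genes, against 66.5% of all named genes. Fbln2 lay at -2.66 when probe sets open to more than 1 transcript were left out. Against the median of the other samples, the members' median deviation was -0.04, 0.08 and 0.12 in replicates 1, 2 and 4. Leaving out 1 replicate gave 6 to 7 of 9 members, 9 to 13 of 17 assembly, 7 of 8 latent TGF-beta and 4 to 5 of 8 elastase genes above background. The share of all named genes was 56.7% to 58.2%. In these runs 0 members passed the spread test. The median deviations then ran from -0.19 to 0.72, 0.15 to 0.79, -1.39 to -1.19 and -0.17 to 0.54 in replicates 1 to 4. That of replicate 3 stayed negative under every alternative run, from -1.93 after quantile normalization to -0.88 with the mean over probe sets. Signal near background limits Mfap2, Fbln2 and Mfap4, whose means lay 0.27, 1.26 and 1.30 log2 units over the thresholds. Quantile normalization moved the median level of all probe sets by 0.17, 0.34, -0.39 and -0.12 in replicates 1 to 4, and that of those above background by 0.06, 0.05, -0.02 and -0.09.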
